A study of Mus musculus with 2 samples.

Results

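The interval described here is a 31 Mb stretch of mouse chromosome 2, from 117 to 148 Mb on the mm9 build, that surrounds Gpcpd1, the gene targeted in the study. Its members are the array probes for genes, not controls, whose lower mm9 coordinate lies in that stretch, without the probes of Gpcpd1 itself, taken in order along the chromosome. They are 624 of the 41174 gene probes on the array, under 369 gene or transcript names, and 474 of them carry a symbol found in the RefSeq gene table. The other 2698 placed probes of chromosome 2 served for comparison. The rule uses position and no expression value.

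The study compared intestinal total RNA of male mice aged 20 weeks on a normal diet, either wild-type or gut-specific GDE5 (Gpcpd1) deficient, on 2 dual-colour Agilent arrays. In replicate 1 the RNA labelled knockout carried the dye Cy3 and the wild-type RNA Cy5, and in replicate 2 the dyes were swapped. The series text names 5 mice. Whether RNA was pooled, whether the arrays hold separate extracts, the Cre driver, the deleted exon and the strain of the targeted embryonic stem cells are not given in the sources used here, so the spread between arrays may be technical. All 10 listed markers of intestinal epithelium were above background in both genotypes.

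Gpcpd1, also called GDE5, encodes a phosphodiesterase that splits glycerophosphocholine, a breakdown product of phosphatidylcholine, into choline and glycerol 3-phosphate. A targeted allele is inherited together with the DNA around it until recombination separates them, which is why the genes on either side of a targeted locus are often looked at beside the targeted gene. Genes of this interval serve many functions and are not a pathway: it holds a raft protein of epithelia (Mal), a glutathione-degrading enzyme (Chac1), the light chain of class I histocompatibility molecules (B2m), a ligand of the bone morphogenetic protein family (Bmp2) and a group of kinetochore and spindle genes.

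All ratios below are log2 values of RNA labelled knockout over wild-type RNA, so that a value of -1 is a level 2-fold lower in the RNA labelled knockout. Of the 4 probes for Gpcpd1, on chromosome 2 from base 132355383 to base 132390402, 3 were higher and none lower in that RNA on both arrays. Their log2 ratios in replicates 1 and 2 were 0.28 and 1.08, 0.65 and 0.29, 0.67 and 0.56, and -0.43 and 0.17. A probe outside a deleted exon does not test a deletion, and the exon is not known here, so the directions given here depend on the dyes that the labels name.

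The results turned on a small number of probes, whose sequences are shown because each reads a defined piece of its transcript. The first 30 of the 60 bases are printed as the files list them, 5′ to 3′ and in lower case throughout. The 2 Mal probes lie at chr2:127458948-127458975 and chr2:127459473-127459532, the 2 Prom2 probes at chr2:127352896-127352955 and chr2:127358592-127360592, all on the minus strand, and the Chac1 probe at chr2:119179990-119180049 on the plus strand (mm9, coordinates as the array design gives them). Whether a probe lies in an exon, an intron or an untranslated region was not analysed here.
Mal A_51_P499071: gagaatctgcaaagtcagacgttctgctag
Mal A_52_P562661: tcactagctgatgttttattctccaacaaa
Prom2 A_52_P452667: ttatgaatgtacaagcaagttttgctgcta
Prom2 A_51_P385928: atgacctggataagcacctggatatcaaac
Chac1 A_51_P134812: actacagtccttgtccattctcagttgacc

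Most of the interval differed little between the genotypes. Of its 624 probes, 470 (75.3%), under 285 names, stood well above background on each array for at least 1 genotype, the same on both, and were tested, and 446 probes were above background in both genotypes on both arrays. Of the 154 others, 112 were above background in no sample of either genotype. The median log2 ratio of the 470 probes was -0.0014 in replicate 1 and -0.017 in replicate 2, and the median size of the mean ratio was 0.066, against 0.063 over the 1834 tested probes of the rest of the chromosome and 0.065 over all 29046 tested probes.

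The arrays pointed in the same genotype direction for 175 of the 470 probes (37.2%), against 35.6% on the rest of the chromosome and 36.1% over all probes. Of these, 77 were higher on both arrays in the RNA labelled knockout, where 17.4% of all tested probes were, and 98 were lower, where 18.8% were. These shares are near the background and are not a result about the interval. Across the 470 probes the 2 arrays' turned ratios had a correlation of -0.32, against -0.46 on the rest of the chromosome and -0.38 over all probes. With the scanner software's processed ratio, a second scale given beside the first for the main genes, the sign of this correlation turned in the interval and on the rest of the chromosome, with values of 0.11, 0.04 and -0.0083. With a smooth surface over each array removed it was -0.14, -0.31 and -0.21. On the processed scale the arrays shared a direction for 46.2% of interval probes, 40.7% of those on the rest of the chromosome and 42.2% of all. These correlations describe probes that share the same 2 arrays and dyes.

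On single arrays, large ratios followed the dye. In replicate 1, 22 interval probes were at least 1.5-fold apart, 19 of them higher in the RNA labelled knockout, which carried Cy3. In replicate 2, 15 were, 13 of them lower in the RNA labelled knockout, with Cy3 now on the wild-type RNA. The same was seen over all probes, with 1270 of 1356 higher in replicate 1 and 904 of 999 lower in replicate 2. At 1.5-fold on both arrays, no interval probe followed the dye, where 0.84% of all tested probes did. A ratio on 1 array alone was therefore not read as a difference between genotypes.

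The 2 arrays agreed in direction and both reached 1.5-fold for 2 of the 470 interval probes (0.426%), where 0.169% of all tested probes were, and 3 of 1834 (0.164%) on the rest of the chromosome. Both were probes for Mal, and both were lower, a direction past 1.5-fold for 0.0482% of all probes. At 1.3-fold there were 3 (background 0.633%), the third being a transcript named AK037161. No interval probe passed limma's test at an adjusted p of 0.05, nor did any of the 29046 probes (0%). The smallest adjusted p over all probes was 0.597 by limma. At an unadjusted limma p under 0.05 there were 8 interval probes (1.70%), where 1.22% of all probes were: the 2 Mal probes and 1 each of AK037161, Knl1, Fam98b, Chac1, Anapc1 and Dusp2. With 2 arrays, an exact two-sided permutation test cannot go below 0.5.

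**Figure D1:**
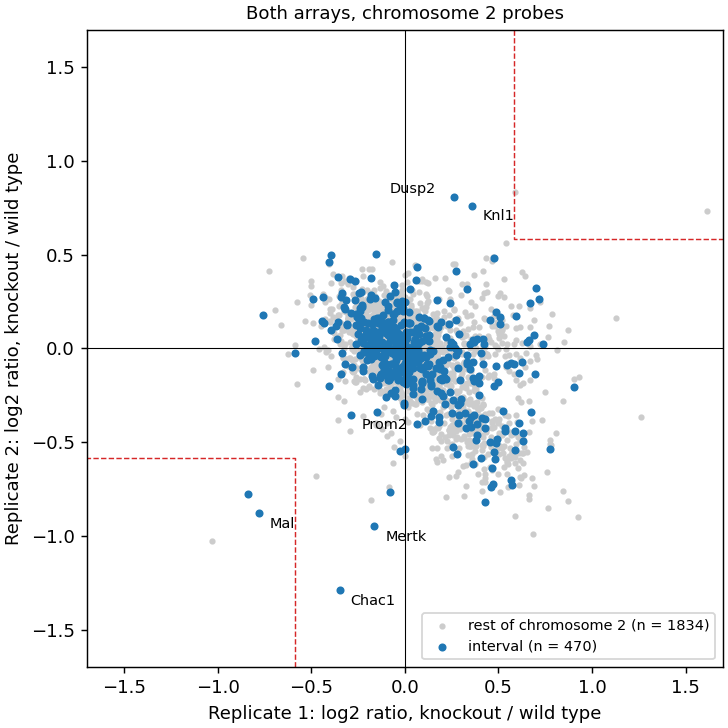
Log2 ratio of RNA labelled knockout over wild-type RNA in replicate 1 (horizontal) and replicate 2 (vertical), one point per tested probe, for the interval (blue, 470 probes) and the rest of chromosome 2 (grey, 1834). Dashed lines mark 1.5-fold in the same direction on both arrays. Both Mal probes lie inside the lower left corner, and the cloud runs from upper left to lower right, where the arrays disagree in direction.

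Mal encodes a small proteolipid of membrane rafts that takes part in sorting proteins to the apical surface of epithelial cells and is also found in myelin. Probe A_51_P499071 read 175 intensity units in the RNA labelled knockout and 305 in wild-type RNA on replicate 1, and 172 and 373 on replicate 2, before background correction. Its log2 ratios were -0.78 and -0.88, a mean of -0.83 ± 0.07 (SD, n = 2 arrays), or 1.78-fold lower. Probe A_52_P562661 read 207 against 368 and 197 against 414. Its ratios were -0.84 and -0.78, with a mean of -0.81 ± 0.04. The wild-type RNA was thus the brighter on both arrays and with either dye, and these uncorrected readings of the genotypes did not overlap at either probe. The share of all tested probes without such overlap was not counted, so the lack of overlap is not read as a result about Mal. The unadjusted limma p of the probes was 0.0032 and 0.0034, and the adjusted p rounded to 1 for each. With marked outlier spots kept in the fit, neither probe reached 1.5-fold on both arrays, and the mean of the first was -0.62. The 2 probes read neighbouring pieces of 1 gene and do not replicate each other.

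The scanner software's processed ratio, which subtracts background and carries no offset for dim spots, gave larger differences for Mal. Its log2 values were -0.88 and -1.12 for the first probe and -0.93 and -1.06 for the second, means of -1.0 and -0.99, and each had a limma adjusted p of 0.046. On that scale limma called 3 interval probes, where 0.275% of all probes were called, and 5 were at least 1.5-fold apart on both arrays (1.06%), where 0.823% of all probes were and 1.15% of those on the rest of the chromosome. The 5 were both Mal probes and Prom2 and Chac1, which were lower, and a Map1a probe (A_52_P846109), which was higher. The Map1a probe read 33.5 to 56.3 units in all channels, near the local background, and its ratios after normexp correction were 0.14 and -0.03.

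Prom2, the third call on the processed scale, encodes a relative of prominin that sits in protrusions of the epithelial plasma membrane. Its measured probe lies 106 kb from the nearer Mal probe. It read 31.9 in the RNA labelled knockout and 64.6 in wild-type RNA on replicate 1, and 49.3 and 53.4 on replicate 2, over a median local background of about 26 in Cy3 and 44 in Cy5. Wild-type RNA was well above background on both arrays and the RNA labelled knockout on 1. The probe therefore passed the filter only through wild-type RNA, the group in which it read higher. Its call is thus not independent of that filter. After normexp correction the log2 ratios were -0.29 and -0.35, with a mean of -0.32 ± 0.05 and an unadjusted limma p of 0.070. On the processed scale they were -1.92 and -2.42, with a mean of -2.17 ± 0.35, or 4.50-fold lower, and a limma adjusted p of 3.04e-05. Normexp without the offset gave -1.01. With marked outlier spots kept in the fit, the mean was -0.17 ± 0.17. Prom2 was lower on both arrays on the normexp and processed scales, and the size of its difference depended on the processing. The second Prom2 probe was not above background in any sample and did not test it.

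The genes between and around Prom2 and Mal did not follow them. Between the Prom2 and Mal probes lie 5 tested probes, 1 for Zfp661, a zinc finger gene, and 4 for Mrps5, a protein of the mitochondrial ribosome. The mean log2 ratio of the Zfp661 probe was -0.04, and those of the Mrps5 probes were 0.10, 0.01, 0.01 and -0.02. All 5 pointed in opposite directions on the 2 arrays. Mall, a relative of Mal in the same family and the next measured gene, read 21111 against 15198 units on replicate 1 and 13627 against 22487 on replicate 2. Its ratios of 0.45 and -0.50 followed the dye. The 2 probes of the spindle checkpoint kinase gene Bub1 had -0.29 and 0.37, and 0.57 and -0.73. Of the 28 other tested probes within 500 kb of Mal, 4 were lower and 2 higher on both arrays, against 18.8% and 17.4% of all tested probes.

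**Figure D2:**
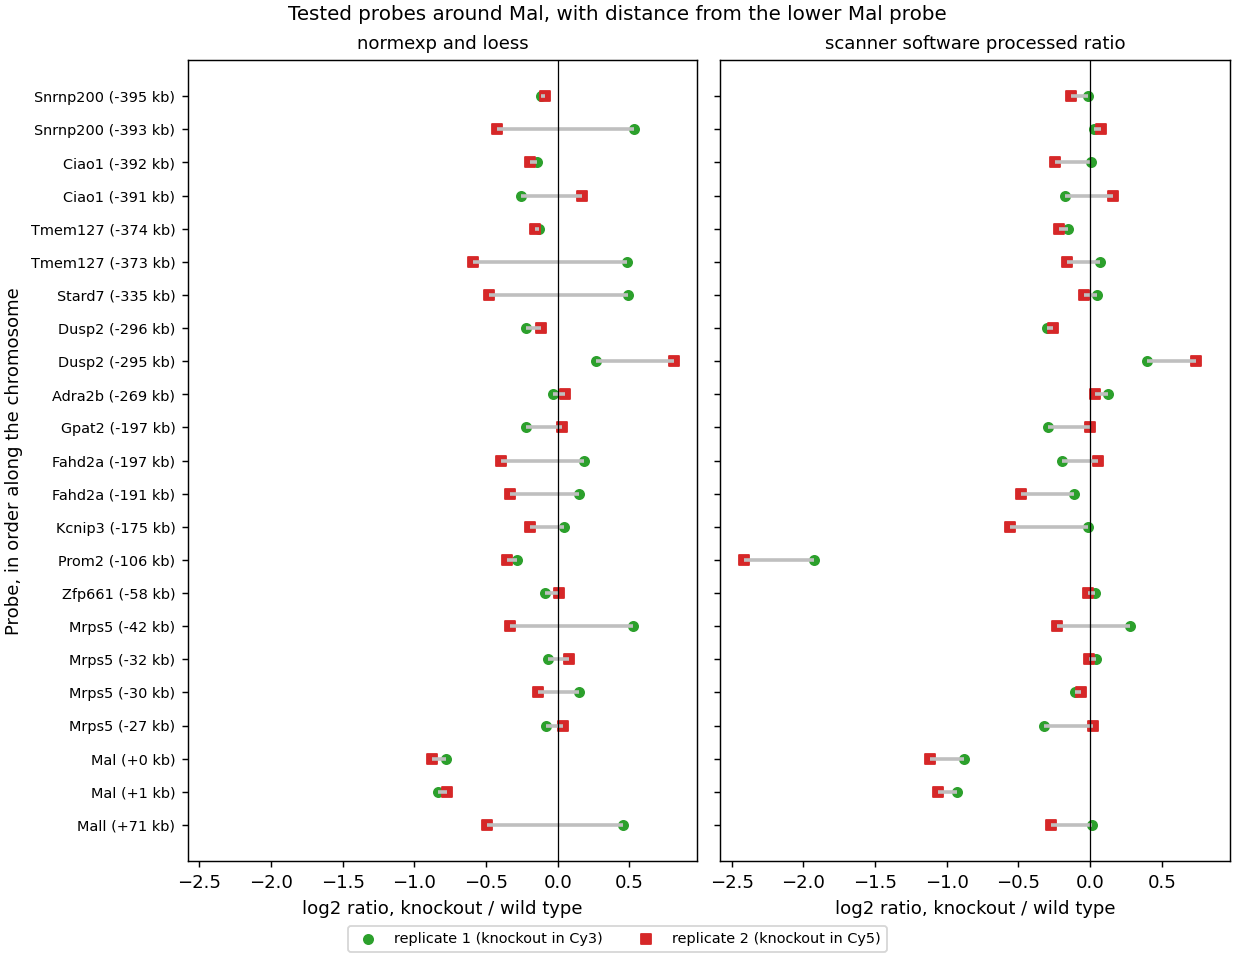
Log2 ratio of RNA labelled knockout over wild-type RNA for the tested probes around Mal, in chromosomal order, with replicate 1 as green circles and replicate 2 as red squares, after normexp and loess (left) and as processed by the scanner software (right). Both Mal probes lie left of 0 on both arrays and scales, Prom2 moves from -0.32 to -2.17 in its mean between the scales, and the 5 probes between them lie near 0.

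Upstream DNA of Mal, Prom2 and Chac1 is shown because these 3 genes had the lowest mean ratios on the processed scale. The sequences are the 250 bases before the RefSeq start (GRCm38.p6), at chr2:127656696-127656945 on the minus strand for Mal, chr2:127541418-127541667 on the minus strand for Prom2 and chr2:119350992-119351241 on the plus strand for Chac1. Capitals mark matches, on either strand, to the TATA motif TATAAA, the CCAAT box, the GC box GGGCGG, the GATA motif AGATAA or TGATGNAA, a composite element of the stress factor ATF4.
Mal: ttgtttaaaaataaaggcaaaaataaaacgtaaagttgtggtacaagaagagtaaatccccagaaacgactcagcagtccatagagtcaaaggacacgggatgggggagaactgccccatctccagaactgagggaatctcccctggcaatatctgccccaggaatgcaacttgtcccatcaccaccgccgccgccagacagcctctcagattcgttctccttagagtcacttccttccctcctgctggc
Prom2: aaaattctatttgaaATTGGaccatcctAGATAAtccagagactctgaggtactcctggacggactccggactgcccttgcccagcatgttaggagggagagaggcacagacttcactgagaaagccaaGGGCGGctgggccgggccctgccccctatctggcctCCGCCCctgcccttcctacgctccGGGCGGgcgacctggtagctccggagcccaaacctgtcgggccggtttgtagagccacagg
Chac1: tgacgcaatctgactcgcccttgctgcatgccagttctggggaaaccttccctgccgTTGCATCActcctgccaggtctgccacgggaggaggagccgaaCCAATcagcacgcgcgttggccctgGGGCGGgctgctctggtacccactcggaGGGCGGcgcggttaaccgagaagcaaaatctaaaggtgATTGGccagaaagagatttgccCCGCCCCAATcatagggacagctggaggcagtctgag

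None of the 5 motifs was found in the Mal window, which has a GC content of 50% against a median of 52.4% over all promoters in the table. The Prom2 window holds 1 CCAAT, 3 GGGCGG and 1 AGATAA, and the Chac1 window 3 CCAAT, 3 GGGCGG and 1 TGATGNAA, whose first base lies 193 bases before the start. In Chac1, 1 GC box and 1 CCAAT overlap. Over 32851 promoters of the same length, 12.4% hold TATAAA, 33.8% CCAAT, 32.7% GGGCGG, 9.99% AGATAA and 3.45% TGATGNAA. A match is a match of letters and is not a binding site.

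Chac1 encodes an enzyme that degrades glutathione and is known as a target of the unfolded protein response. Its probe read 321 against 384 units (RNA labelled knockout against wild-type) on replicate 1 and 217 against 664 on replicate 2. The log2 ratios were -0.35 and -1.29, with a mean of -0.82 ± 0.67, an unadjusted limma p of 0.037 and an adjusted p that rounded to 1. On the processed scale they were -0.81 and -0.99, with a limma adjusted p of 0.083. Chac1 was lower on both arrays, and after normexp and loess the arrays differed more from each other than their mean did from 0.

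Other genes lower on both arrays had smaller or less even ratios. Mertk, a receptor kinase through which macrophages take up dying cells, had -0.16 and -0.95. Ralgapa2, a subunit of a complex that switches off Ral GTPases, had -0.41 and -0.20 at 1 probe, while its 2 other tested probes had 0.41 and -0.02, and -0.05 and -0.10. Usp8, an endosomal deubiquitinase, had -0.15 and -0.34 at 1 probe and 0.02 and 0.14 at a dimmer one.

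Some small ratios were even between the arrays. Knstrn, a gene of the mitotic spindle with 1 probe, had -0.17 and -0.16. Nop56, of the ribonucleoprotein that methylates ribosomal RNA, had -0.18 and -0.15 at its bright probe and -0.08 and -0.08 at its dim one. Mapkbp1 (-0.12 and -0.14) and Catsper2 (-0.11 and -0.13), each with 1 tested probe, were also lower on both arrays.

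Other even ratios came from 1 of several probes. Nusap1, also of the spindle, had -0.13 and -0.13 at a probe that read 42.6 to 66.0 units, while its bright probe had 0.13 and -0.08. Ciao1, of cytosolic iron-sulphur protein assembly, had -0.14 and -0.19, and -0.26 and 0.17 at its brighter probe. Tmem127 had -0.13 and -0.16, and 0.48 and -0.59 at its brighter probe. Tubgcp4, of the gamma-tubulin complex, had -0.11 and -0.13 at its bright probe, and 0.11 and -0.39 at its dim one. Rnf24 had -0.13 and -0.15 at a dim probe, which on the processed scale had -0.24 and -0.92, and its 2 other tested probes differed in direction between the arrays. That dim probe passed the filter only through wild-type RNA, the group in which it was higher. None of these genes passed limma's adjusted test.

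AK037161, a transcript named only by its clone at base 119408053, was higher on both arrays, by almost the same ratio after normexp and loess. It read 183 against 127 units on replicate 1 and 206 against 153 on replicate 2, with log2 ratios of 0.48 and 0.48. On the processed scale they were 0.41 and 0.83. Stk35os1, a transcript opposite to the kinase gene Stk35, had 0.33 and 0.32. Trmt6, a subunit of a transfer RNA methyltransferase and a near neighbour of Gpcpd1, had 0.24 and 0.24 at 1 probe and 0.29 and 0.08 at the other. On the processed scale the first of these probes had -0.03 and 0.44, in opposite directions. Neither Trmt6 nor Stk35os1 reached an unadjusted limma p of 0.05.

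Other genes higher on both arrays had ratios that differed more between the arrays or between probes. Knl1, a scaffold of the kinetochore, read 360 against 253 units on replicate 1 and 344 against 221 on replicate 2 at probe A_51_P489285, with log2 ratios of 0.36 and 0.76 and a mean of 0.56 ± 0.28. Its 2 other probes had 0.43 and -0.37, and 0.04 and -0.04. Dusp2, a phosphatase of mitogen-activated kinases found in lymphocytes, had 0.26 and 0.81 at 1 probe, which read 1441 against 1054 and 1339 against 945 units. Its other probe, which read 144 to 177 units, had -0.22 and -0.12, the opposite direction on both arrays. Fam98b, a partner of the transfer RNA ligase complex, had 0.70 and 0.32 at 1 probe and -0.23 and 0.23 at the other.

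Vps16, a subunit of complexes that tether endosomes and lysosomes, had 0.59 and 0.17 at its bright probe and -0.17 and -0.04 at a dim one. Rtf1, of a complex that travels with RNA polymerase II, had 0.51 and 0.17 at 1 of 5 probes, whose means ran from -0.02 to 0.34, with 2 higher and 1 lower on both arrays. Esf1, a nucleolar gene, had 0.48 and 0.19 at 1 of 3 probes, and means of 0.03 and -0.05 at the others. The metalloprotease gene Adam33 had 0.27 and 0.15, and 0.02 and -0.12 at its dimmer probe. For each of Knl1, Dusp2, Fam98b, Vps16, Rtf1, Esf1 and Adam33, at least 1 other probe was not higher on both arrays.

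Probes of the same gene often disagreed, which bears on every gene read by 1 probe. Of 40 genes with 3 or more tested probes, the widest spreads were those of Knl1, Ctdspl2, Kif16b, Anapc1 and Rrbp1, with SDs of 0.25 to 0.32 among their probes' mean ratios. Ctdspl2, a phosphatase gene, had a mean of 0.46 at 1 probe and -0.01 and -0.03 at the others. Anapc1, the largest subunit of the anaphase-promoting complex, had 0.49, 0.14, -0.0039 and -0.09. The 5 probes of Rrbp1, a ribosome-binding protein of the endoplasmic reticulum, ran from -0.30 to 0.34, with 2 higher and 2 lower on both arrays. Kif16b, an endosomal motor gene, had -0.42, 0.10 and -0.04. In B2m, by contrast, the 3 probes had means of 0.24, 0.28 and 0.30, but only A_51_P129006 was higher on both arrays (0.45 and 0.15).

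The genes nearest to Gpcpd1 showed no shared direction. Each gene was read here by its brightest tested probe, and 17.4% of all tested probes were higher and 18.8% lower on both arrays. Of the 10 nearest measured genes on the proximal side, out to 1.00 Mb, 1 was higher and 2 lower on both arrays, and 7 pointed in opposite directions, with means from -0.16 to 0.14. Of the 10 on the distal side, out to 2.91 Mb, 2 were higher, none lower and 8 opposite, with means from -0.09 to 0.25. The higher genes were Prnd, a paralogue of the prion protein gene (0.07 and 0.11, with a mean of 0.44 on the processed scale), Trmt6, and Bmp2 (0.19 and 0.14), a ligand that restrains crypt proliferation. The lower genes were Slc23a2, a vitamin C transporter (-0.05 and -0.06), and Smox, spermine oxidase (-0.08 and -0.24). On the processed scale the probes of Trmt6 and Slc23a2 pointed in opposite directions on the 2 arrays. The closest measured genes on either side were Cds2, an enzyme of phosphatidylinositol synthesis, with -0.08 and 0.13, and Shld1, of a DNA repair complex, with 0.30 and -0.17. Both differed in direction between arrays at these probes. Of the 5 tested probes of Cds2, 3 were lower and none higher on both arrays. Tmx4, counted among the opposite distal genes, had 2 of 3 tested probes higher and none lower on both arrays.

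Widening the window did not change this. Within 1 Mb of Gpcpd1, 27 tested probes of 18 genes held 6 higher and 5 lower on both arrays. Within 2 Mb, 12 of 77 probes were higher and 19 lower, and within 5 Mb 32 of 159 were higher and 35 lower. Over all tested probes, 17.4% were higher and 18.8% lower on both arrays. These counts were not tested. The largest ratio reached on both arrays within 2 Mb was 0.24, that of Trmt6 after normexp and loess. Mal lies 4.90 Mb and Prom2 5.0 Mb from Gpcpd1.

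**Figure D3:**
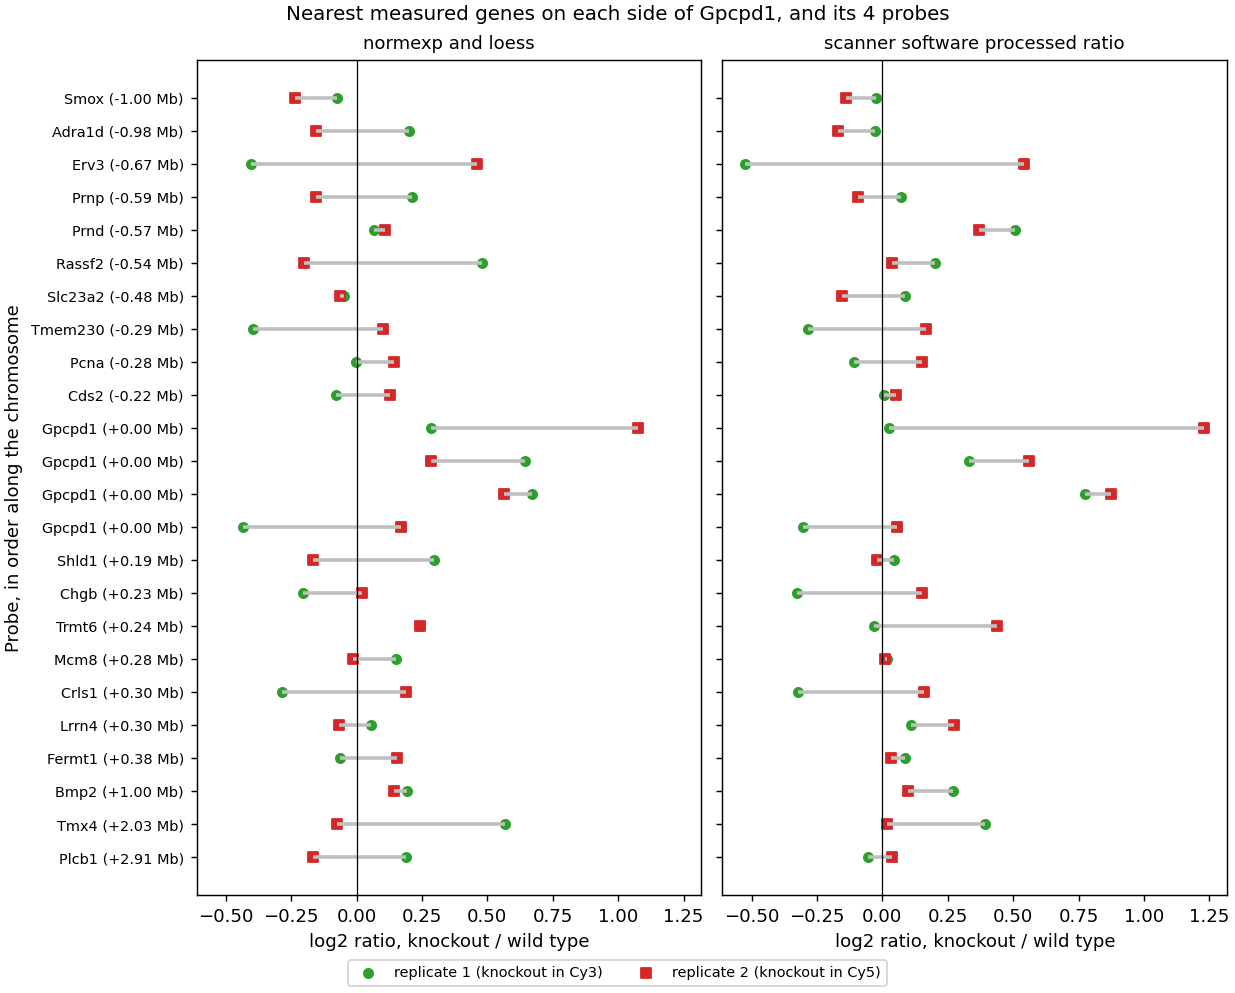
Log2 ratio of RNA labelled knockout over wild-type RNA for the 10 nearest measured genes on each side of Gpcpd1 and for its 4 probes, with replicate 1 as green circles and replicate 2 as red squares, after normexp and loess (left) and as processed by the scanner software (right). Each neighbour is shown by its brightest tested probe. The neighbours' means lie between -0.16 and 0.25 on the left, and 15 of the 20 lines cross 0 there.

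Along the whole interval, 3 Mb bins by distance from Gpcpd1 had median mean ratios between -0.04 and 0.10, and the bin at the upper end of that range, from 15 to 18 Mb on the proximal side, held 7 probes. On the processed scale that bin had a median of 0.24, and the other bins -0.04 to 0.06. In the bin from 0 to 3 Mb on the distal side, 6 of 21 probes were higher and 1 lower on both arrays, with a median of 0.07. In the bin from 0 to 3 Mb on the proximal side, 16 of 88 were higher and 24 lower, with a median of -0.01. The shares over all tested probes were 17.4% higher and 18.8% lower, and the counts of these bins were not tested. Probes at least 1.3-fold apart on both arrays lay in the bins from 12 to 15 Mb (AK037161) and from 3 to 6 Mb (Mal) on the proximal side. At the edges of the interval, the tested probes just outside and just inside the lower limit were both for Spred1, with a mean of -0.10 each, and those at the upper limit were for Foxa2 inside (-0.02) and Sstr4 outside (-0.07).

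**Figure D4:**
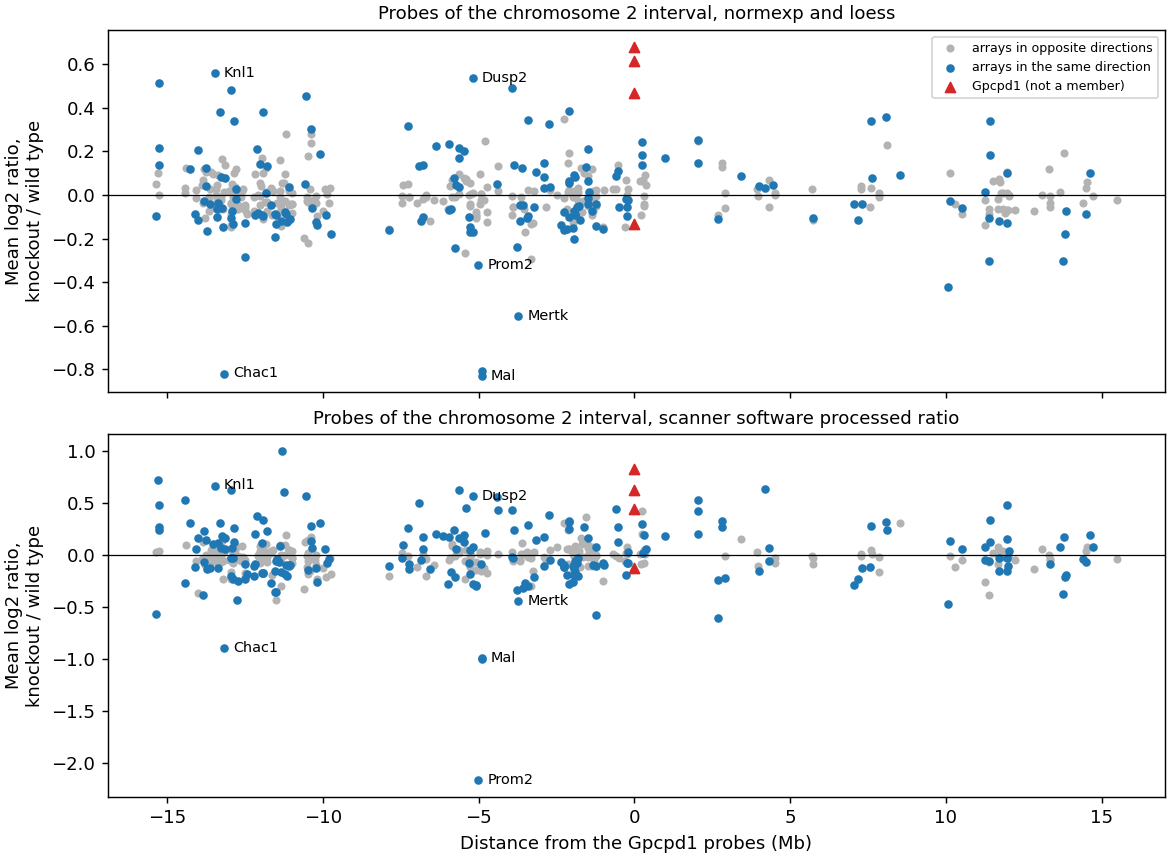
Mean log2 ratio of RNA labelled knockout over wild-type RNA for the 470 tested probes of the interval against distance from the Gpcpd1 probes in Mb, after normexp and loess (top) and as processed by the scanner software (bottom). Blue points have both arrays in the same direction, grey points do not, and red triangles are the 4 Gpcpd1 probes. The lowest points, Mal, Chac1 and, on the processed scale, Prom2, lie between 4.90 and 13.2 Mb from Gpcpd1.

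The interval's genes were also read by function, each gene by its brightest tested probe, against the 17.4% of all tested probes that were higher and the 18.8% that were lower on both arrays and a median of -0.01 over all of them. No gene of any list passed limma's adjusted test after normexp and loess. On the processed scale Mal and Prom2, of the epithelial transporter and membrane protein list, did, Prom2 having passed the filter only through wild-type RNA. The lists were drawn up by hand with earlier results of these data known, and they are descriptions only.

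Of 14 measured genes of lipid and phospholipid enzymes, 4 were higher and 2 lower on both arrays, with a median of 0.01. Those higher were Slc27a2, which activates long-chain fatty acids (0.42 and 0.05), Plcb4, a phospholipase C (0.13 and 0.04), Acoxl, an acyl-CoA oxidase relative (0.07 and 0.03), and Stard9. The Acoxl probe was dim and passed the filter only through the RNA labelled knockout, and its mean moved from 0.05 to 0.56 on the processed scale. Those lower were Pla2g4b, a phospholipase A2 (-0.03 and -0.55), and Sptlc3, a serine palmitoyltransferase subunit (-0.04 and -0.04). Cds2, Crls1 and Stard7, which handle phosphatidate, cardiolipin and phosphatidylcholine, pointed in opposite directions on the 2 arrays.

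Of 19 genes of the epithelial transporter and membrane protein list, 3 were higher and 3 lower, with a median of -0.01. Mal was the lowest, Prom2 and Slc23a2 were the others lower on both arrays, and Slc27a2, Disp2 and the channel kinase Trpm7 were higher. Of 16 genes of mitochondrial and amino acid metabolism, 1 was higher and 3 lower, with a median of -0.01. The lower genes were Chac1, Smox and Sqor, the sulphide-oxidising enzyme of mitochondria (-0.10 and -0.26). The higher gene was Ndufaf5, an assembly factor of respiratory complex I (0.02 and 0.13). Idh3b, a subunit of isocitrate dehydrogenase, had the highest mean of that list, from ratios of 0.90 and -0.21 that disagreed in direction.

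Of 19 cell cycle and replication genes, 15 pointed in opposite directions. Knl1 and Dut, which removes deoxyuridine triphosphate (0.51 and 0.13), were higher, and Tubgcp4 and Ccndbp1 lower. Of 19 genes of ribosome biogenesis, RNA and protein handling, 1 (Trmt6) was higher and 6 were lower: Nop56, Snrpb, Snrpb2, Polr3f, Ubox5 and Ebf4, the last a transcription factor rather than a gene of that group. The median was -0.03. Polr3f, of RNA polymerase III, had -0.09 and -0.17 at its brightest probe and 0.08 and 0.12 at another.

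Of 20 genes of the immune list, 5 were higher and 6 lower, with a median of -0.03. The list also holds Anapc1, Tmem87a, Usp8 and Zc3h6, which are not immune genes. Il1b, a cytokine of inflammation, had 0.02 and 0.19, Il1a -0.09 and -0.02, and Rasgrp1, which activates Ras in lymphocytes, 0.17 and 0.26 at its brighter probe and 0.22 and 0.06 at the other. Duoxa2, the maturation factor of the epithelial oxidase Duox2, had -0.08 and -0.17. Over the whole array, markers of other cells differed more. All 22 interferon-stimulated genes measured were above background in both genotypes, and 19 were higher on both arrays in the RNA labelled knockout, with summed intensities of 62729 against 39259 on replicate 1 and 51818 against 44429 on replicate 2. Of 12 markers of B and plasma cells, 8 were higher, with sums of 64811 against 59468 and 68452 against 57093. None of these markers lies in the interval, and their part in the ratios of B2m, Dusp2, Rasgrp1 and Mertk was not tested.

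Of 14 genes for Notch and bone morphogenetic protein signals and gut transcription factors, 2 were higher (Bmp2 and the enteroendocrine factor Nkx2-2, 0.13 and 0.07) and 1 lower (the Notch ligand Dll4, -0.0046 and -0.29), with 11 opposite. Flrt3, a membrane protein that binds growth factor receptors, had 0.55 and -0.09 at its brightest probe and 0.66 and 0.05 at its other. Of 16 neuroendocrine and secretory genes, 5 were higher and 1 lower, with a median of 0.01 and means from -0.15 (Oxt) to 0.18 (Rrbp1). Avp, vasopressin, had 0.11 and 0.07, and Pcsk2, a hormone convertase, 0.01 and 0.01. In tissue RNA, fewer cells of a type and less RNA per cell cannot be told apart.

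Over the whole array, 12 of 14 skeletal muscle markers were higher on both arrays in the RNA labelled knockout, with a median of 0.43 and a highest value of 2.18, and their summed intensity was 4644 against 2456 on replicate 1 and 3988 against 2457 on replicate 2. Of these genes, Actn3, Mb, Myh1, Myoz1, Pvalb and Xirp2 were not above background in both genotypes on both arrays. They entered the test through 1 genotype only, so the filter can bear on their direction. The count, median and sums above include them. Smooth muscle markers had a median of 0.00 over 7 genes, and intestinal epithelium markers -0.06 over 10. Their part in the ratios of interval genes was not tested. Each array held 43379 spots of gene probes, none saturated. The 245 probes printed 10 times each had a median SD of the log2 ratio among their spots of 0.183 in replicate 1 and 0.121 in replicate 2. Most interval probes had a smaller mean ratio. A spread of spots within an array and a mean over both arrays are, however, unlike measures.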

How the data were processed

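Per the file headers, the deposited scanner files hold intensity values of each spot, as mean pixel brightness and median local background, from Agilent Feature Extraction 11.5.1.1 (design 014868, mm9 coordinates). The submitters' processing notes name version 9.5 instead. The deposited log10 ratio, processed Cy5 over Cy3, was background-subtracted and dye-normalized by that software, and the deposited value table holds it rounded, with 0 columns beyond the 2 arrays. Median intensity was 98.7 to 106 over a background of 25 to 44. The number of arrays, 2, limits the precision.

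Spots marked as outliers were left out, normexp (offset 50) and then within-array loess were applied in R 4.3.3 with limma 3.58.1, and ratios were averaged per probe and turned to RNA labelled knockout over wild type. Probes for which 1 genotype was well above background on each array were tested by lmFit and eBayes against 0, with Benjamini-Hochberg adjustment over all 29046 probes. The code was tested on simulated data, where calls were required only at a spread between arrays far below the real one. Passing that check does not show that changes are called at the real spread. The processed ratio was run as an alternative and log2-transformed.

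Members and lists were chosen with earlier results of these data known. Genes named were those 1.5-fold apart on both arrays, the 15 highest and 15 lowest by the smaller ratio, the 10 nearest on each side of Gpcpd1, up to 4 per list and the 5 with the widest spread among their probes. Mall, Bub1, Zfp661, Mrps5, Map1a, AK037161 and the other genes named beside them were added after their values were seen. No genome of the mm9 build was used. Promoters are from RefSeq (GRCm38.p6).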

Additional observations from a re-analysis of the deposited data

How the results depend on the processing

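Both Mal probes were lower on both arrays in the 10 settings of background correction, normalization and filter, with means from -1.04 to -0.62 for A_51_P499071 and -0.99 to -0.65 for A_52_P562661. The 2 settings that change only the filter leave a probe's ratios as they were. The value table gave nearly the same ratios as the processed ratio. These settings are therefore not separate checks of Mal. The count of interval probes at least 1.5-fold apart on both arrays was 2, and became 5 with the scanner software's processed ratio, 5 with the deposited value table, 4 with normexp at offset 0, 0 with marked outlier spots kept, 1 with the brightest probe per gene and 0 at a 2-fold threshold. On single arrays the count was 15 to 22, a value with no test, since limma cannot be fitted to 1 array. limma's adjusted calls went from 0 to 3 with the processed ratio and 3 with the value table, and those among the named probes to 2 and 2. The median ratio was -0.021 with median centring and -0.024 with outlier spots kept. Avp turned to -0.013 with the processed ratio, -0.013 with the value table and -0.0053 without background correction, and Ndufaf5 (-0.0080) and Pcsk2 (-0.017) turned with outlier spots kept. The cause of these moves was not tested. These alternatives were run gene by gene on the 75 probes of the naming rule, and not on the genes added after their values were seen. Among these 75, no other probe with both arrays in 1 direction changed the sign of its mean. Single arrays did turn at some probes. On the processed scale Trmt6 had -0.03 and 0.44, Ciao1 0.01 and -0.25, and Slc23a2 0.09 and -0.15. Sqor had 0.01 and -0.37 there, and Plcb4 0.32 and -0.02. Each array holds both genotypes and yields 1 ratio, so the test of these ratios against 0 already pairs the genotypes within an array. No slide block was fitted. Dim probes such as Prom2 are limited by their signal over background.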
